A study of Mus musculus with 6 samples.

Results

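A set of 30 genes of fatty acid beta-oxidation and ketone body metabolism were followed in mouse liver RNA, with and without treatment with iD1. The 30 members were taken by symbol from the deposited table of 34866 genes: 18 mitochondrial enzymes and carriers, 10 peroxisomal ones, and 2 that textbooks place in both organelles. All 30 passed the filter on low counts and were among the 13718 genes tested. Livers came from 8-week-old male C57BL/6 mice kept with free access to food and water, and a drug was given by intraperitoneal injection. The 3 control samples were titled as vehicle, although their treatment label reads untreated, and 3 received iD1, a compound known here by its code name only. Its dose, target, exposure time and the feeding state at sampling are not given in the labels, no allele or transgene is named, and the labels do not say that each sample is a separate animal. The p-values therefore measure the spread between these 6 libraries.

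Beta-oxidation shortens a fatty acyl-CoA by repeated cycles of dehydrogenation, hydration, a second dehydrogenation and thiolytic cleavage. Mitochondria carry most of this flux in hepatocytes: acyl-CoA dehydrogenases pass electrons to the electron transfer flavoprotein, and the acetyl-CoA can leave the liver as ketone bodies. Peroxisomes shorten very long-chain, branched and dicarboxylic acids and bile acid precursors with a separate set of enzymes, and in rodents many of those genes are known targets of the nuclear receptor PPAR-alpha.

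Levels below are counts scaled to 1e+06 per library (CPM) with TMM factors, in the order vehicle replicate 1, replicate 2 and the vehicle without a number, then iD1 replicates 1, 2 and 3. Changes are log2 fold changes of iD1 over vehicle with their standard error (SE), from edgeR's quasi-likelihood F test, and a gene was called at an adjusted p under 0.05. Of the 30 members, 7 rose (23.3%) and 0 fell. At an unadjusted p under 0.05 the counts were 12 higher and 0 lower, DESeq2 called 9 higher and 0 lower, and voom 7 and 0. Over all tested genes, 8.42% rose and 8.30% fell. The median change of the members was 0.27, beside 0 over all tested genes, and the members ranged from -0.46 to 1.35. The iD1 libraries lay above every vehicle library, without overlap, for 19 of 30 members (63.3%, against 18.5% of all tested genes), and below them for 0 members (against 18.7%). Of the mitochondrial members 4 of 18 rose, and 13 of 18 did not overlap. Of the peroxisomal members 2 of 10 rose, and 4 of 10 did not overlap. In whole liver, fewer cells of a type and less RNA per cell cannot be told apart. The count of members called higher was 1 without vehicle replicate 2, without the unnumbered vehicle or without iD1 replicate 3, and also 1 when libraries were scaled by their totals alone. It was 4 without vehicle replicate 1, where 1 member was also lower, 5 without iD1 replicate 2 and 7 without iD1 replicate 1. Scaling by totals alone moved the median of all genes by -0.20 and that of the members to 0.06, and left 21 members above 0 in place of 26. Under that scaling, 26 members lay above the median of all genes.

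**Figure D1:**
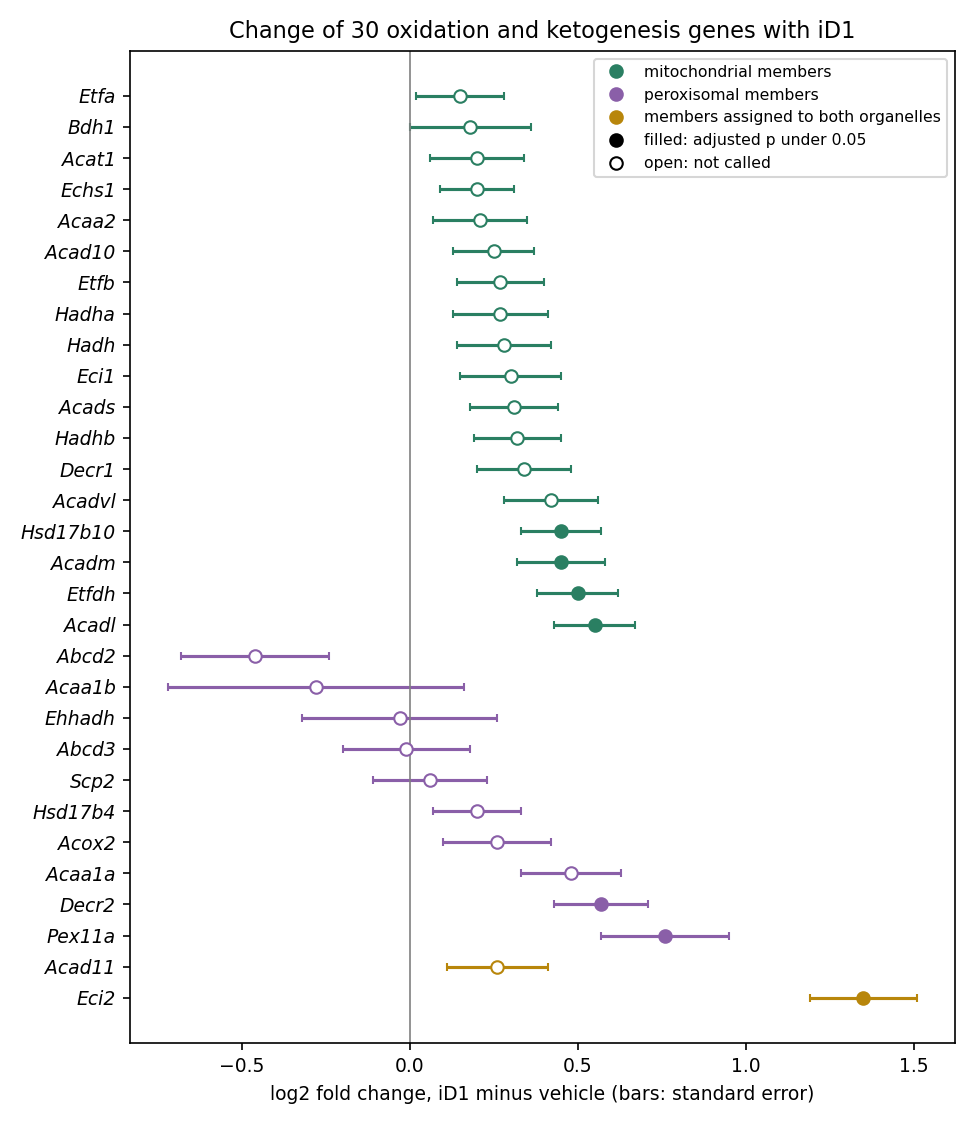
Log2 fold change of iD1 over vehicle for each of the 30 members (x axis, log2 scale), grouped by organelle, with standard errors as bars and filled points for the 7 called genes. Eci2 stands apart at 1.35, the mitochondrial members lie between 0.15 and 0.55, and the peroxisomal members spread from -0.46 to 0.76.

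The enoyl-CoA isomerase Eci2 (ENSMUSG00000021417, chr13:34977748-35027096, GRCm38), which moves double bonds of unsaturated fatty acids into the position that the cycle can use, showed the highest change of the 30. Its level was 120, 118 and 143 CPM in the vehicle libraries and 264, 341 and 364 CPM in the iD1 libraries. Every iD1 library was far above every vehicle library. The means were 127 ± 14.0 and 323 ± 52.6 CPM (SD, n = 3), a log2 fold change of 1.35 (SE 0.16, adjusted p = 0.000981 by edgeR), or 2.54-fold with a 95% interval of 1.98 to 3.26. Of the 7 members called, it was the one whose call held in each of the 19 alternative settings, with log2 fold changes from 1.14 to 1.47 and a highest adjusted p of 0.0208. The mitochondrial isomerase Eci1, with the same kind of activity, measured 102, 70.0 and 74.6 CPM in vehicle and 97.3, 99.5 and 105 CPM with iD1. Its vehicle replicate 1 lay within the iD1 range, and its log2 fold change of 0.30 (SE 0.15, adjusted p = 0.214) was not called, although without that library its adjusted p was 0.0440. Per kilobase of the longest transcript, Eci2 stood at 0.467, 0.670 and 0.760 of the level of Eci1 in vehicle, and at 1.07, 1.36 and 1.37 of it with iD1. Per kilobase of the longest protein-coding transcript the ratios were 0.769, 1.10 and 1.25 in vehicle and 1.77, 2.23 and 2.25 with iD1. By either length the ratio was higher in each iD1 library than in any vehicle library, whereas which of the pair was higher in vehicle depends on the length used. For such a ratio no p is given, since the smallest that an exact permutation test of these 6 libraries allows is 0.1. Eci2 shares 189 exon bases with an antisense gene, Gm16984, which was not analysed here, and no source used here says whether the counting used strand. Its close relative Eci3 (89.5% identity over 947 aligned bases) held 0.110 and 0.273 CPM in the 2 groups and was looked up after the values of Eci2 were seen.

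DNA before a RefSeq start of Eci2, which lies inside the span of the gene given above, is shown with that of 3 other members. Together they span the patterns described here. Eci2 and Acadl rose without overlap between the groups, whereas Acaa1b and Ehhadh overlapped and were not called. The sequences are from RefSeq on GRCm38.p6, 5′ to 3′ on the gene's own strand, and stop before annotated exons. Capitals mark GC boxes (GGGCGG on either strand, a site type of the Sp1 family) and CCAAT boxes (CCAAT on either strand). The stretches lie on the minus strand at chr13:34994282-34994394 for Eci2, chr1:66863310-66863559 for Acadl, chr9:119157094-119157343 for Acaa1b and chr16:21787835-21788084 for Ehhadh.
Eci2: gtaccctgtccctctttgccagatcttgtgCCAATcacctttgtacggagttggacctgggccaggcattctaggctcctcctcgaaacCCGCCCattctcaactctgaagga
Acadl: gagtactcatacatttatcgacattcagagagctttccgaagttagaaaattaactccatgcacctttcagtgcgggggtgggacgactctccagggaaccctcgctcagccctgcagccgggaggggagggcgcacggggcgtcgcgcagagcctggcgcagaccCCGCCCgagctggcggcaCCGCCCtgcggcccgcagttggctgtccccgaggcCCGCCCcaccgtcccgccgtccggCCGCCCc
Acaa1b: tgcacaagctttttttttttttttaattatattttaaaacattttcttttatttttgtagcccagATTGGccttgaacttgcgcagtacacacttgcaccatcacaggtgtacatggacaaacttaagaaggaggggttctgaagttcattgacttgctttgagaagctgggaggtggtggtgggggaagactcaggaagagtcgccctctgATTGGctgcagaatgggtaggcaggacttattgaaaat
Ehhadh: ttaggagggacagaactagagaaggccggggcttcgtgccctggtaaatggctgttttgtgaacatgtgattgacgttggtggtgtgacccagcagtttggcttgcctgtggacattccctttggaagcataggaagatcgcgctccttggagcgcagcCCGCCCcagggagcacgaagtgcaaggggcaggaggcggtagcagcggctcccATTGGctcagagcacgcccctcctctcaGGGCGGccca
The stretch of Acadl held 25 CpG dinucleotides, 68.0% G and C, and 4 GC boxes, a composition common at broadly active genes. That of Acaa1b held 2 CpG, 41.6% G and C, no GC box and 2 CCAAT boxes. Ehhadh held 12 CpG and 60.4% G and C, and the shorter Eci2 stretch held 3 CpG and 54.9%. The Eci2 stretch leaves out the 137 exon bases nearest the start. Its whole window of 250 bases held 12 CpG and 61.2% G and C. RefSeq windows were found for 25 of the 30 members (28 windows of 250 bases before a start, beside 32851 windows of all genes). The member windows had a median of 58.8% G and C and 12 CpG, against 52.4% and 6 over all windows. A GC box lay in the windows of 14 of 25 members, among them Acadl, Eci2, Decr2 and Hsd17b10. Counted by window, it lay in 14 of 28 member windows and in 32.7% of all windows. A CCAAT box lay in the windows of 11 of 25 members, which is 11 of 28 member windows, and in 33.8% of all windows. The direct repeat of AGGTCA with 1 base of any kind between the copies (DR1), the form that PPAR-alpha with RXR binds, was searched on both strands: no member window held it with up to 1 mismatch, beside 0.484% of all windows. With up to 2 mismatches it was found for Echs1 and Etfa, beside 3.24% of all windows. The estrogen-related receptor element TCAAGGTCA was in no member window and in 0.387% of all. These are matches of letters in a short window and say nothing of binding here or elsewhere.

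Among the mitochondrial acyl-CoA dehydrogenases, which open each cycle and differ in the chain length they take, Acadl and Acadm rose. The long-chain enzyme Acadl (chr1:66830839-66863277) measured 145, 127 and 126 CPM in vehicle and 196, 188 and 199 CPM with iD1. These means of 133 ± 10.5 and 194 ± 5.54 CPM (SD, n = 3) gave a log2 fold change of 0.55 (SE 0.12, adjusted p = 0.0139 by edgeR). The medium-chain enzyme Acadm (chr3:153922357-153944632) measured 226, 206 and 223 CPM against 269, 298 and 327 CPM, a log2 fold change of 0.45 (SE 0.13, adjusted p = 0.0457). For both genes every iD1 library lay above every vehicle library. The call of Acadl was lost without vehicle replicate 2, the unnumbered vehicle or iD1 replicate 3 (adjusted p up to 0.0698), and that of Acadm without any library other than iD1 replicate 1 (up to 0.159). The very-long-chain enzyme Acadvl measured 254, 237 and 255 CPM against 281, 371 and 345 CPM, also without overlap, and its log2 fold change of 0.42 (SE 0.14, adjusted p = 0.0783) was not called by edgeR. DESeq2 called it (adjusted p = 0.0279), as did edgeR without iD1 replicate 1 (0.0350). Acadvl shares 1151 exon bases with Dvl2 on the other strand, which held 5.17 and 4.67 CPM. The short-chain enzyme Acads (0.31, SE 0.13, adjusted p = 0.150) and the low-level Acad10 (0.25, SE 0.12, adjusted p = 0.180) were not called. Acad11, a dehydrogenase assigned to both organelles, measured 229, 262 and 286 CPM against 290, 294 and 349 CPM and was not called (0.26, SE 0.15, adjusted p = 0.245).

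Electrons from these dehydrogenases pass through the flavoprotein made of Etfa and Etfb to its oxidoreductase, Etfdh, in the inner membrane. Etfdh (chr3:79603788-79629500) held 164, 167 and 164 CPM in vehicle and 222, 230 and 247 CPM with iD1. The vehicle libraries were almost equal, and all iD1 libraries stood above them. The means of 165 ± 1.82 and 233 ± 12.5 CPM (SD, n = 3) differed by 0.50 on the log2 scale (SE 0.12, adjusted p = 0.0202 by edgeR), a call lost without any vehicle library or without iD1 replicate 3 (adjusted p up to 0.0838). The subunits Etfa (269, 229 and 251 CPM against 266, 279 and 288 CPM) and Etfb (190, 160 and 174 CPM against 193, 226 and 211 CPM) were not called, with log2 fold changes of 0.15 (SE 0.13, adjusted p = 0.454) and 0.27 (SE 0.13, adjusted p = 0.194). The ratio of Etfa to Etfb per kilobase was 0.908, 0.918 and 0.928 in vehicle and 0.884, 0.793 and 0.876 with iD1. It was lower in each iD1 library than in any vehicle library, and no p is given. Etfb shares 617 exon bases with Gm45233 on the same strand (0.15 CPM in vehicle and 0.031 CPM with iD1). The part of this overlap in the ratio was not tested. Of 7 other flavin dehydrogenases that hand electrons to the same carrier, 0 were called in either direction by edgeR or DESeq2, with a median of 0.16 and 1 higher at an unadjusted p under 0.05. The highest of them were Sardh of sarcosine breakdown (504 and 548 CPM) and Gcdh of lysine breakdown (377 and 439 CPM).

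**Figure D2:**
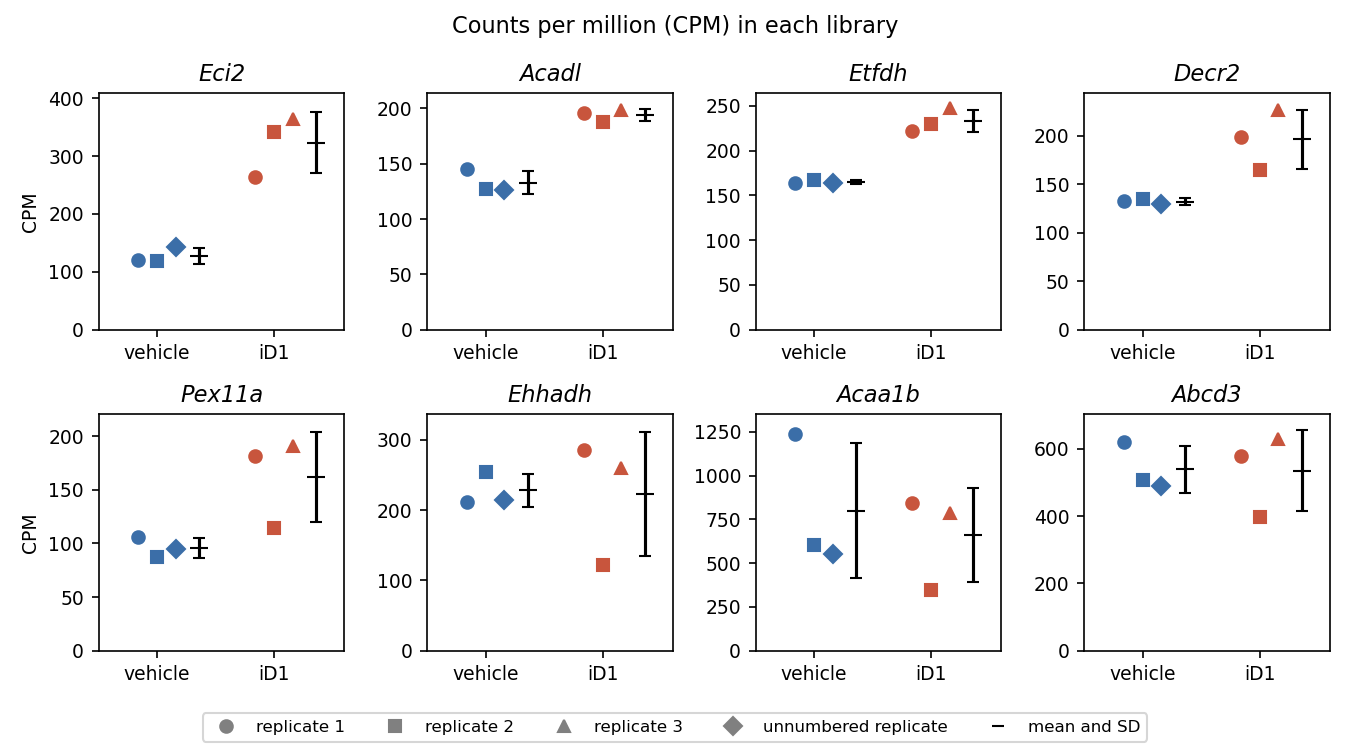
CPM (y axis, linear, from 0) of 8 members in each of the 3 vehicle and 3 iD1 libraries, with each group's mean and SD beside the points. Eci2, Acadl and Etfdh separate without overlap, whereas in Ehhadh, Acaa1b and Abcd3 the groups overlap and iD1 replicate 2 is the lowest of all 6 libraries.

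The inner steps of the mitochondrial cycle are carried by the trifunctional protein (Hadha and Hadhb) for long chains and by Echs1, Hadh and the thiolase Acaa2 for shorter ones. None of these 5 was called by edgeR or DESeq2. Hadha measured 242, 252 and 274 CPM against 268, 304 and 352 CPM, and the groups overlapped. Hadhb measured 147, 139 and 157 CPM against 163, 184 and 207 CPM without overlap. Their log2 fold changes were 0.27 (SE 0.14, adjusted p = 0.242) and 0.32 (SE 0.13, adjusted p = 0.127), and the ratio of Hadha to Hadhb varied little between libraries. It lay between 1.79 and 1.98 per kilobase of the longest transcript and between 0.836 and 0.925 per kilobase of the longest protein-coding one, so which subunit is higher depends on the length used. These subunit genes lie back to back on opposite strands, with RefSeq starts 273 bases apart. The 85 bases between the outermost ends of the genes in GENCODE are shown, because they lie before both (chr5:30155163-30155247, plus strand, the strand of Hadhb, GC boxes in capitals).
Hadha and Hadhb: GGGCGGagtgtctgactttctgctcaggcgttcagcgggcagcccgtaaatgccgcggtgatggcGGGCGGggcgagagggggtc
It holds a GC box at its Hadha end and another further along. Hadh gave 0.28 (SE 0.14, adjusted p = 0.207). Echs1 measured 141, 144 and 147 CPM against 162, 167 and 169 CPM, a difference without overlap that was small (0.20, SE 0.11, adjusted p = 0.243). Echs1 shares 142 exon bases with Paox on the other strand, a gene that fell from 43.5 to 21.6 CPM (log2 fold change -1.01, adjusted p = 0.00143). Acaa2, the most abundant mitochondrial member per length, measured 568, 502 and 556 CPM against 615, 614 and 650 CPM (0.21, SE 0.14, adjusted p = 0.337). The 95% interval of its fold, 0.933 to 1.43, leaves room for a rise of the size seen in Acadm.

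The branched-chain dehydrogenase Hsd17b10 (chrX:152001845-152004442), which oxidizes hydroxyacyl-CoA from isoleucine breakdown and is also a part of mitochondrial RNase P, rose. It measured 99.2, 97.5 and 111 CPM in vehicle and 130, 147 and 144 CPM with iD1, without overlap. Its log2 fold change was 0.45 (SE 0.12, adjusted p = 0.0289 by edgeR), and the call was lost without any library other than iD1 replicate 1 (adjusted p up to 0.101). Decr1, the mitochondrial dienoyl-CoA reductase for polyunsaturated fatty acids, gave 0.34 (SE 0.14, adjusted p = 0.130) and was not called.

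The ketone body members showed no call. Acat1, the thiolase that forms acetoacetyl-CoA, measured 326, 288 and 330 CPM against 320, 387 and 375 CPM (0.20, SE 0.14, adjusted p = 0.376). Bdh1, which reduces acetoacetate to beta-hydroxybutyrate, measured 106, 77.7 and 74.3 CPM against 103, 78.5 and 111 CPM (0.18, SE 0.18, adjusted p = 0.528). In both genes the groups overlapped.

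Of the peroxisomal members, Decr2 and Pex11a rose. Decr2 (chr17:26081208-26090337), the peroxisomal dienoyl-CoA reductase, measured 133, 135 and 129 CPM in vehicle and 198, 164 and 226 CPM with iD1. Its vehicle libraries were close together and all iD1 libraries were above them, although spread among themselves. The means of 132 ± 3.41 and 196 ± 30.8 CPM (SD, n = 3) gave 0.57 (SE 0.14, adjusted p = 0.0241 by edgeR), a call lost without any vehicle library or without iD1 replicate 3 (adjusted p up to 0.0927). Pex11a (chr7:79735957-79743131), a membrane protein of peroxisome elongation and division and a classical PPAR-alpha target in rodents, measured 106, 86.9 and 95.2 CPM against 181, 114 and 191 CPM. Its iD1 replicate 2 lay just above the highest vehicle library and well below the other iD1 libraries. Its log2 fold change was 0.76 (SE 0.19, adjusted p = 0.0264), lost without any library other than iD1 replicate 2 (adjusted p up to 0.0924).

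The core peroxisomal cycle gave no call. Acox2, the oxidase for branched chains and bile acid precursors, measured 129, 161 and 121 CPM against 187, 138 and 166 CPM (0.26, SE 0.16, adjusted p = 0.306). The bifunctional enzymes carry hydration and the second dehydrogenation: Ehhadh measured 212, 255 and 215 CPM against 285, 122 and 260 CPM, and Hsd17b4 measured 328, 316 and 319 CPM against 363, 360 and 384 CPM. Ehhadh was high in 2 of the iD1 libraries and lowest of all 6 in iD1 replicate 2, so that its log2 fold change of -0.03 (SE 0.29, adjusted p = 0.955) has a fold interval from 0.614 to 1.55. Without iD1 replicate 2 it was 0.25 (adjusted p = 0.326). Hsd17b4 did not overlap and differed little (0.20, SE 0.13, adjusted p = 0.308).

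The peroxisomal 3-ketoacyl-CoA thiolases are encoded by Acaa1a (chr9:119339676-119350299) and Acaa1b (chr9:119148023-119157093). Acaa1a measured 126, 87.7 and 103 CPM against 141, 136 and 164 CPM, without overlap (0.48, SE 0.15, adjusted p = 0.0625). It was called by DESeq2 (adjusted p = 0.0279), by edgeR with no filter on low counts (0.0488) and without vehicle replicate 1 (0.0332). Acaa1b measured 1240, 604 and 552 CPM against 842, 349 and 787 CPM, wide and overlapping (-0.28, SE 0.44, adjusted p = 0.714, fold interval 0.399 to 1.70). Its direction rests on single libraries: without vehicle replicate 1 the log2 fold change was 0.19, and without iD1 replicate 2 it was 0.02. Per kilobase of the longest transcript, Acaa1b stood at 21.4, 15 and 11.6 times the level of Acaa1a in vehicle and 13.0, 5.56 and 10.4 times it with iD1, and these ranges overlap. Per kilobase of the longest protein-coding transcript the ratios were 10.3, 7.18 and 5.58 in vehicle and 6.23, 2.67 and 5 with iD1, also overlapping. The longest reading frames of the pair are 96.5% identical over 1275 aligned bases, so how reads were shared between them is uncertain. Acaa1a also shares 290 exon bases with Myd88 on the other strand, a gene that rose from 9.06 to 19.4 CPM (1.10, adjusted p = 0.000696), and its part in the values of Acaa1a was not tested. Scp2, the sterol carrier and thiolase for branched chains, was the most abundant of the 30 per length and measured 3020, 2230 and 2630 CPM against 2700, 2880 and 2660 CPM (0.06, SE 0.17, adjusted p = 0.844).

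The transporters that bring acyl-CoA into the peroxisome were not called either. Abcd3 measured 621, 507 and 490 CPM against 579, 398 and 629 CPM (-0.01, SE 0.19, adjusted p = 0.979, fold interval 0.734 to 1.34). Abcd2, the least abundant member per length, measured 9.48, 16.3 and 17.3 CPM against 10.8, 9.29 and 11.3 CPM (-0.46, SE 0.22, adjusted p = 0.181). Vehicle replicate 1 held about the iD1 level of Abcd2, and without it the log2 fold change was -0.68 with an adjusted p of 0.0207, which is the 1 lower call among the peroxisomal members in that setting.

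Within the iD1 group, the mitochondrial and peroxisomal members ordered the libraries differently, a pattern chosen for description after the values were seen and given without a test. Of the 18 mitochondrial members, 14 were lowest of the iD1 libraries in replicate 1, 4 in replicate 2 and 0 in replicate 3. Of the 10 peroxisomal members, 9 were lowest in replicate 2, 1 (Scp2) in replicate 3 and 0 in replicate 1. Over all tested genes, the lowest iD1 library was replicate 1 for 35.0%, replicate 2 for 34.9% and replicate 3 for 30.1%. Replicate 2 was lowest for 12 of 16 PPAR-alpha targets outside oxidation and for 11 of 22 other oxidation, carnitine and ketone genes. It was also lowest for 6 of 10 regulators of oxidation, 5 of 7 periportal genes and 4 of 7 pericentral genes. Of 19 peroxisome biogenesis genes, 9 were lowest in replicate 1 and 8 in replicate 2. Of 15 mitochondrial content genes, 10 were lowest in replicate 1. Summed over members, the mitochondrial level was 3490, 3130 and 3380 CPM in vehicle and 3810, 4180 and 4340 CPM with iD1, so that the groups did not overlap. The peroxisomal sum was 5930, 4400 and 4680 CPM against 5480, 4670 and 5470 CPM and overlapped, with vehicle replicate 1 the highest library. Scp2 and Acaa1b make up much of that sum.

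**Figure D3:**
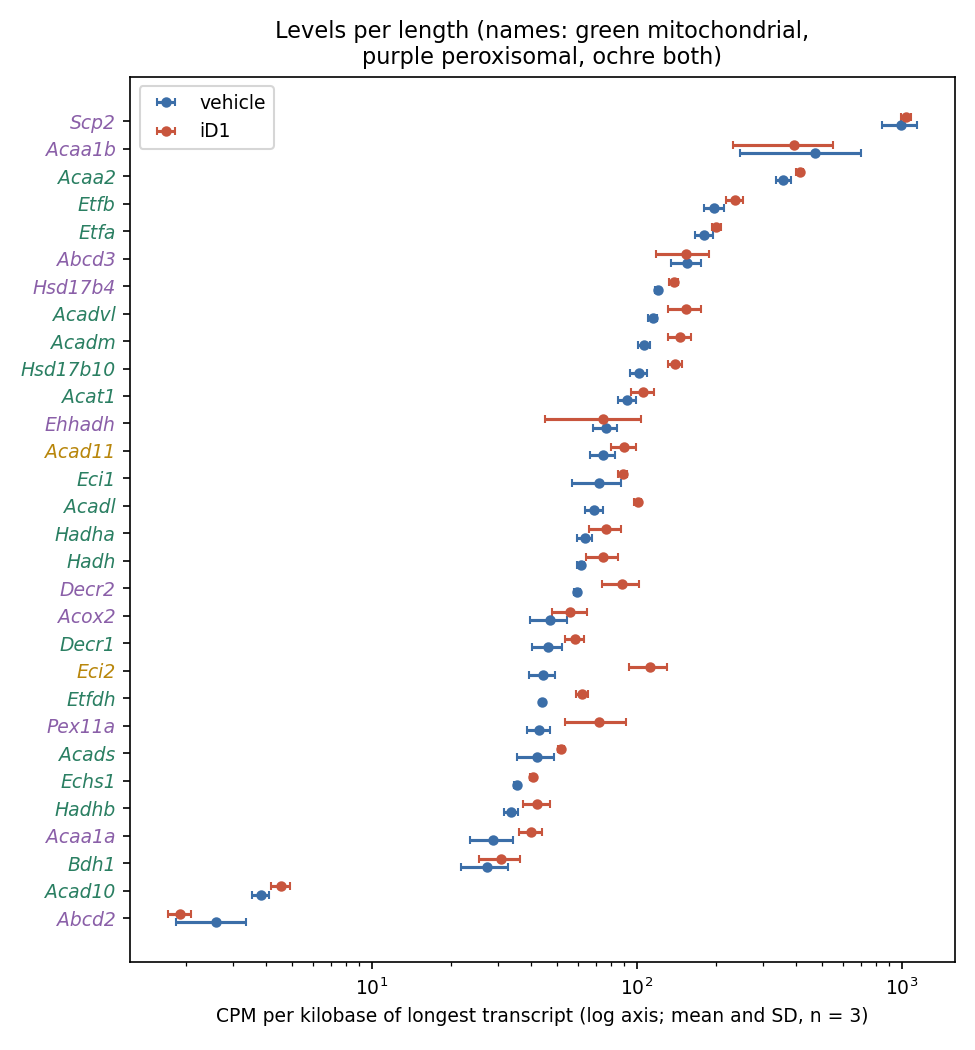
Level of each member per kilobase of its longest transcript (CPM per kilobase, log axis) in the 2 groups, as means with SD bars over 3 libraries. Scp2, Acaa1b and Acaa2 are highest and Abcd2 and Acad10 lowest in both groups, and Eci2 moves up the order with iD1.

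Per kilobase of the longest annotated transcript, vehicle levels ran from 996 ± 150 CPM per kilobase for Scp2 (SD, n = 3), through 473 ± 228 for Acaa1b and 358 ± 23.3 for Acaa2, down to 3.83 for Acad10 and 2.59 for Abcd2. Scp2 lay above Acaa1b by more than their spread, whereas the spread of Acaa1b reached the level of Acaa2. Eci2 moved from 44.3 to 112 CPM per kilobase. For some members the longest transcript is not the coding one, and per kilobase of the longest protein-coding transcript, a choice added after the data were seen, Eci2 stood at 72.9 and 185, Eci1 at 72.1 and 88.6, Etfdh at 69.4 and 98.0, and Acaa1a at 60.0 and 83.5. The highest 3 and the lowest 2 members were the same by either length, and part of the order between them depends on the length used.

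Genes around these members were read from lists of the wider pathway. Of 22 other genes of oxidation, carnitine handling and ketone metabolism, 6 rose and 0 fell (median 0.36; DESeq2 called 9 and 0, and 12 were higher and 1 lower at an unadjusted p under 0.05). They included the carnitine importer Slc22a5 (14.8, 16.1 and 18.1 CPM against 60.7, 74.1 and 83.7 CPM, log2 fold change 2.16, SE 0.15, adjusted p = 9.99e-05) and Cpt1a, which controls the entry of long chains into mitochondria (132, 161 and 153 CPM against 393, 415 and 502 CPM, 1.56, adjusted p = 0.000468). The acyl-CoA synthetase Slc27a2 (0.92, adjusted p = 0.00824) and the racemase Amacr (0.52, adjusted p = 0.0221, lost without vehicle replicate 2, the unnumbered vehicle or iD1 replicate 3, up to 0.0931) also rose. Without single libraries the count of calls in this list ran from 4 (without vehicle replicate 2, the unnumbered vehicle or iD1 replicate 3) to 8 higher (without vehicle replicate 1), and 2 were lower without iD1 replicate 1 and 1 without iD1 replicate 2. Phyh, which starts the alpha-oxidation of phytanic acid (1410 and 1860 CPM, 0.40, adjusted p = 0.108), and the synthetase Acsl1 (873 and 809 CPM, -0.11, adjusted p = 0.785) were not called. The called genes of this list showed log2 fold changes from 0.52 to 2.16, whereas those of the mitochondrial members reached 0.55 at most. The difference between the lists was not tested.

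**Figure D4:**
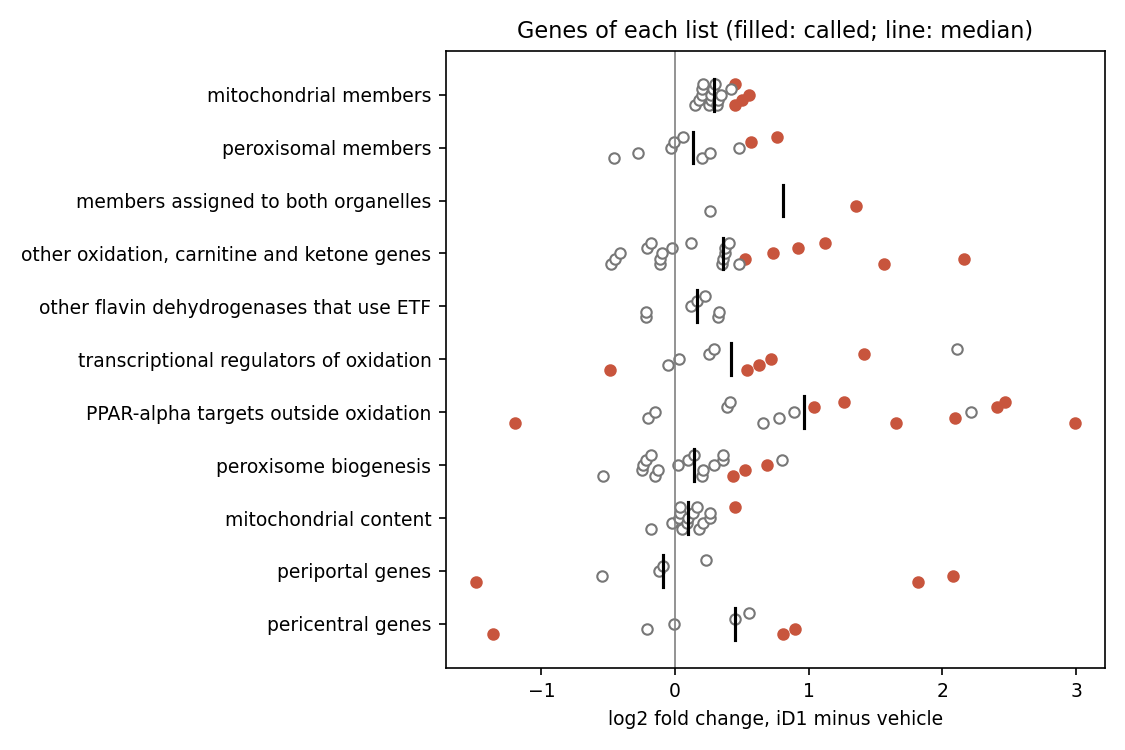
Log2 fold changes (x axis, iD1 over vehicle) of single genes in the member groups and in the lists around them, each point a gene, filled where called, with a line at each list's median. Medians lie between -0.09 for the periportal genes and 0.97 for the PPAR-alpha targets outside oxidation, with the mitochondrial members at 0.29 and the peroxisomal members at 0.13.

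Of 10 transcriptional regulators of oxidation, 4 rose and 1 fell. The deacetylase Sirt1 (8.47 and 14.0 CPM, 0.72, adjusted p = 0.00442) kept its call without any single library. The coactivator Ppargc1a (1.41, adjusted p = 0.0262), the factor Creb3l3 (0.54, adjusted p = 0.0177) and Ppara (58.4, 58.0 and 49.2 CPM against 88.2, 65.7 and 102 CPM, 0.63, adjusted p = 0.0299) rose, and the estrogen-related receptor Esrra fell (-0.49, adjusted p = 0.0313); each of these 4 lost its call without 4 or 5 of the 6 libraries in turn (adjusted p up to 0.115). Lpin1 (145 and 624 CPM, 2.11, SE 0.67, adjusted p = 0.0968) and Rxra (0.25, adjusted p = 0.234) were not called. Of 16 PPAR-alpha targets outside oxidation, 7 rose and 1 fell (median 0.97). The hormone gene Fgf21 (0.567 and 4.44 CPM, 2.99, adjusted p = 0.000871) and the lipase inhibitor Angptl4 (41.9 and 232 CPM, 2.47, adjusted p = 0.000283) led the rises, with the lipid-droplet genes Cidec (1.65, adjusted p = 0.0119) and Plin2 (1.04, adjusted p = 0.0204). The thioesterase Acot2 rose (1.26, adjusted p = 0.0110) and Acot3 fell (-1.20, adjusted p = 0.00588). Acot3 shares 396 exon bases with Gm49366 on the same strand (1.16 and 0.321 CPM). The fatty acid binding protein Fabp1 (3050 and 2650 CPM, -0.20, adjusted p = 0.728) and Retsat (0.66, adjusted p = 0.0541) were not called. Cidec lost its call without vehicle replicate 2 (0.0554), Acot2 without the unnumbered vehicle (0.0517), and Plin2 without vehicle replicate 2, the unnumbered vehicle or iD1 replicate 3 (up to 0.0820).

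Organelle content was read from genes outside the cycle. Of 19 peroxisome biogenesis genes, 3 rose (median 0.14): the membrane anchors and import factors Pex26 (0.69, adjusted p = 0.0143), Pex3 (0.52, adjusted p = 0.0205) and Pex16 (0.43, adjusted p = 0.0431), each lost without 2 or more of the libraries in turn. Catalase, the abundant matrix enzyme Cat (1940 and 2080 CPM, 0.10, adjusted p = 0.730), and Pxmp4 (0.80, adjusted p = 0.0714) were not called. Of 15 nuclear genes of mitochondrial content, the import receptor Tomm20 rose (0.45, adjusted p = 0.0383, lost without 4 of the libraries in turn) and 14 were not called (median 0.10), among them the ATP synthase subunits Atp5b (0.21, adjusted p = 0.367) and Atp5a1 (0.18, adjusted p = 0.444). The share of counts on mitochondrially encoded genes was 10.6, 12.3 and 13.6% in vehicle and 8.68, 9.37 and 10.3% with iD1. It was lower in every iD1 library, and its part in the values of the members was not tested.

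Library totals ranged from 23515571 to 37613549 estimated counts, with TMM factors of 1.01 to 1.11 in vehicle and 0.878 to 1.01 with iD1. The unscaled share of counts on the 30 members was 0.857 to 1.08% in vehicle and 0.832 to 0.989% with iD1, and these ranges overlapped. The summed hepatocyte markers held 72700 to 96100 CPM in vehicle and 91100 to 99600 CPM with iD1, led by Alb, as in liver. Summed markers of Kupffer cells (81.8 to 137 and 79.2 to 110 CPM), sinusoidal endothelium (114 to 152 and 111 to 134 CPM), stellate cells (168 to 228 and 162 to 220 CPM) and cholangiocytes (22.9 to 36.5 and 28.0 to 45.5 CPM) overlapped between the groups. Single markers moved under these sums. Of 5 stellate markers, Lrat fell (-1.77, adjusted p = 0.00289). Of 5 cholangiocyte markers, Krt19 fell at a low level (1.23 and 0.184 CPM, -2.66, adjusted p = 0.00312). Sox9 rose (0.85, adjusted p = 0.0386), a call kept only without iD1 replicate 3. Of 5 endothelial markers, 3 were lower and 1 higher without overlap, and 0 were called. Neutrophil markers held 1.16 to 1.32 CPM in vehicle and 3.51 to 11.2 CPM with iD1, where 3 of 4 tested were higher, and their part in the results was not tested. Zones of the lobule differ in fatty acid oxidation. Of 7 periportal genes, Pck1 (2.08, adjusted p = 0.00074) and Sds (1.82, adjusted p = 0.00922) rose and Cdh1 (-1.49, adjusted p = 0.000499) fell, with Ass1 and Cyp2f2 not called. Of 7 pericentral genes, Cyp2e1 (0.90, adjusted p = 0.0193, lost without 4 of the libraries in turn) and Slc1a2 (0.81, adjusted p = 0.00467) rose and Lgr5 (-1.36, adjusted p = 0.0121, lost without vehicle replicate 2) fell, with Glul (0.45, adjusted p = 0.0509) and Oat (0.55, adjusted p = 0.0806) not called.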

How the data were processed

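For 6 liver libraries the authors deposited estimated counts in 1 table, without scaling to depth. Per the labels' protocols, TRIzol and RNeasy extraction preceded a stranded mRNA library kit. No aligner, quantifier or genome build is named (not given in the sources used here). A single vehicle column bears a number found in no title and stands here as the unnumbered vehicle. The estimated counts were rounded, filtered with filterByExpr (minimum count 10, minimum total 15), scaled by TMM and compared with edgeR 4.0.16 in R 4.3.3 (quasi-likelihood F test, robust, two-sided, Benjamini-Hochberg adjustment over 13718 genes, threshold 0.05). The SE is the log2 fold change divided by the square root of F. DESeq2 1.42.0 and limma 3.58.1 (voom) were alternatives, and the fit was tested on simulated data. Positions and transcript lengths are from GENCODE M21 on GRCm38. Chi-square over degrees of freedom of 38.4 to 97.8 between libraries of a group showed no duplicate.

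The members and lists were chosen with earlier results of these data known. All 30 members are accounted for. Values per library are given for called members, for the highest per length, and for steps with no call. Other lists name up to 6 called genes by smallest p and up to 2 others of high level, and some genes are not reported here. Fits on the 4 libraries of the block without the block, and levels and ratios per coding transcript, were added after the data were seen.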

Additional observations from a re-analysis of the deposited data

How the results depend on the processing

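Comparing each of the 30 members with its reported log2 fold change in 19 alternative settings, 0 calls reversed, 58 were lost and 7 were gained, 486 values kept their call or moved by less than the spread, and 19 uncalled values moved further. Among 430 comparisons not called in either fit, 15 changed sign. The reported fit called 1155 genes higher and 1138 lower, with 7 members higher, 4 of them mitochondrial and 2 peroxisomal. Scaling by totals alone gave 597 and 1883, with 1 member and 0 in each organelle group, and upper-quartile scaling gave 902 and 1447, with 6 members. A threshold of 0.01 gave 458 and 367, and a test against a fold of 1.2 gave 650 and 628, each with 1 member and 0 in each organelle group. DESeq2 called 9 members.

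A replicate block was possible for the 4 libraries with a shared number. It left 1 residual degree of freedom and gave 407 and 361 calls, with 1 member and 0 in each organelle group. The same 4 libraries with no block, a setting added after the data were seen, gave 281 and 240 calls, with 1 member. The correlation of deviations between same-numbered libraries was 0.20 for number 1 and -0.15 for number 2. Pairs with different numbers ran from -0.3 to 0.27, so these values cannot decide whether a shared number marks a shared batch.

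Leaving out the unnumbered vehicle gave 592 genes higher and 620 lower, with 1 member and 0 in each organelle group. Leaving out each other replicate in turn gave 653 to 1201 genes higher and 578 to 1373 lower, 1 to 7 members higher and 0 to 1 lower, 0 to 5 mitochondrial and 0 to 2 peroxisomal members higher, and 0 to 1 peroxisomal members lower. A missed call does not show that a gene was unchanged.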
